A study of Mus musculus with 8 samples.

Results

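Small nuclear RNAs (snRNAs) and small Cajal body-specific RNAs (scaRNAs) were examined in dendritic cell-restricted progenitors (CDPs) of the bone marrow (BM) of male mice on a high-fat diet (HFD) and of chow-fed (CF) controls. The members were all genes of the count table whose Ensembl identifier carries the biotype snRNA or scaRNA in the GENCODE vM21 annotation of mouse genome GRCm38. There were 232 of them among 16119 genes, 211 snRNA and 21 scaRNA genes, out of 1385 snRNA and 51 scaRNA genes in the annotation. Of the 232, 231 passed the filter on low counts and were tested. The exception was Gm24191, an snRNA gene of no recognised class whose 8 libraries held between 3 and 37 counts.

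The snRNAs are the RNA cores of the particles that remove introns from pre-mRNA. U1 pairs with the 5′ splice site and U2 with the branch point, and U4, U6 and U5 then join as a tri-snRNP in which U6 replaces U1 at the 5′ splice site and U5 holds the exon ends. A rarer class of introns is removed by the minor spliceosome, with U11, U12, U4atac and U6atac in place of U1, U2, U4 and U6 and with the same U5. U7 does not splice and guides the 3′ cleavage of histone mRNA. The scaRNAs reside in the Cajal body, a nuclear compartment, and guide 2′-O-methylation and pseudouridylation of the snRNAs. Most are cut out of introns of other genes.

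Total RNA was taken from about 50000 CDPs per library, sorted from BM as Lin-, c-kit int, Sca1 lo, CD115+ and Flt3+ cells of C57BL/6 mice, given as C57BL/6J in the study's methods. HFD mice were the diet-induced obesity stock, labelled DIO, on 60 kcal% fat for 16 weeks. CF mice were the matched stock, labelled DIO-Control, on 10 kcal% fat. The study's methods give both stocks as males of 16 weeks when bought. Each diet had 4 libraries, described in the study as independent replicates, and whether cells of several animals were pooled is not given in the sources used here. The labels give no allele or other agent for either diet. Libraries were made by whole-transcriptome amplification with targeted depletion of rRNA and held between 28203651 and 48409689 counts. The genes of 3 proteins of the sort (Flt3, Kit and Csf1r, which encodes CD115) and 3 other genes known in these progenitors (Irf8, Cx3cr1 and Cd34) were measured in both diets, and none was called. Summed, these 6 reached 531 CPM in HFD replicate 1, 1060 to 1250 CPM in the other HFD libraries and 858 to 1030 CPM in CF. In bulk RNA such as this, fewer cells with a transcript and less of it per cell cannot be told apart. In the labels the sample numbers of all HFD libraries come before those of all CF libraries. An effect of any step done in that order cannot be told apart from diet.

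Each snRNA gene was placed in a class by a stretch of 9 letters known for its RNA, which is a part that pairs with RNA in each class except U7, where it is a protein-binding site. It was searched on the strand of the gene, and genes without it were classed by similarity to a member that holds it. The stretches were ACTTACCTG for U1, GTGTAGTAT for U2, CTTTGCGCA for U4, GCCTTTTAC for U5, ATACAGAGA for U6, AAGGAGAGA for U6atac, GGTTGCGCT for U4atac, AAAGGGCTT for U11, GAGTAAGGA for U12 and TTTGTCTAG for U7. All 8 members with an Rnu symbol fell in the class of their name. The table held 40 U1, 24 U2, 8 U4, 7 U5, 123 U6 and 4 U12 genes, 1 gene each of U4atac, U6atac and U7, and 2 snRNA genes of no class. No U11 gene was among the members. The sequences below are those of the member with the highest mean count in each class except U5 and U6, read from the GENCODE vM21 transcripts, with the class stretch in capitals. They show how short these RNAs are and how the major and minor RNAs differ in the part in capitals.
U1, Gm25679, chr12:54719163-54719326, minus strand: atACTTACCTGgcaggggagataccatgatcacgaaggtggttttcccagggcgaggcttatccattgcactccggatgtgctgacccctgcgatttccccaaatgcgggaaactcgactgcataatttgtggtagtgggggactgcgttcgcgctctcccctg
U2, Gm23971, chr11:101645740-101645930, minus strand: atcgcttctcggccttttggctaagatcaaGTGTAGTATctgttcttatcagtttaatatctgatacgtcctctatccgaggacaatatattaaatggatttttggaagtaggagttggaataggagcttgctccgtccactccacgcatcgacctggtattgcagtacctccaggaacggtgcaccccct
U4, Gm24265, chr5:115489459-115489599, plus strand: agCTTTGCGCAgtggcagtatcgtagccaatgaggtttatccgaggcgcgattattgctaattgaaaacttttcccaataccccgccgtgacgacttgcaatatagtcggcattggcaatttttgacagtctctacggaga
U12, Rnu12, chr15:83149644-83149794, plus strand: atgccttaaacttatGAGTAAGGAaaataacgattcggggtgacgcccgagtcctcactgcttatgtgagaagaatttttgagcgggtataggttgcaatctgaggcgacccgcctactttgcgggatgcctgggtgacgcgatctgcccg
U4atac, Gm22710, chr1:118459141-118459265, minus strand: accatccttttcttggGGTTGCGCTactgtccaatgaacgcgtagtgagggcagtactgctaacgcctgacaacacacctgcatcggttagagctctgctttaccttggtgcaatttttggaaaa
U6atac, Gm25541, chr2:27539805-27539930, minus strand: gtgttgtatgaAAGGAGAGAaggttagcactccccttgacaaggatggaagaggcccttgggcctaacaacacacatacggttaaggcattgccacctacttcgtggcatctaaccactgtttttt
U7, Rnu7, chr6:124741225-124741286, minus strand: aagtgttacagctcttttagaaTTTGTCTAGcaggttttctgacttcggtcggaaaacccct

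snRNA and scaRNA genes held a smaller share of the counts in every HFD library than in any CF library. The members took 2.13%, 2.36%, 2.75% and 3.21% of all counts in HFD replicates 1 to 4 and 7.29%, 5.63%, 5.50% and 4.84% in CF replicates 1 to 4. The mean was 2.61% ± 0.475 (SD, n = 4) in HFD and 5.82% ± 1.04 (SD, n = 4) in CF, a log2 ratio of -1.15 before any scaling between libraries. Outside rRNA genes, which took between 33.9% and 44.3% of the counts in a library, the members' mean share was 4.61% in HFD and 9.49% in CF.

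**Figure D1:**
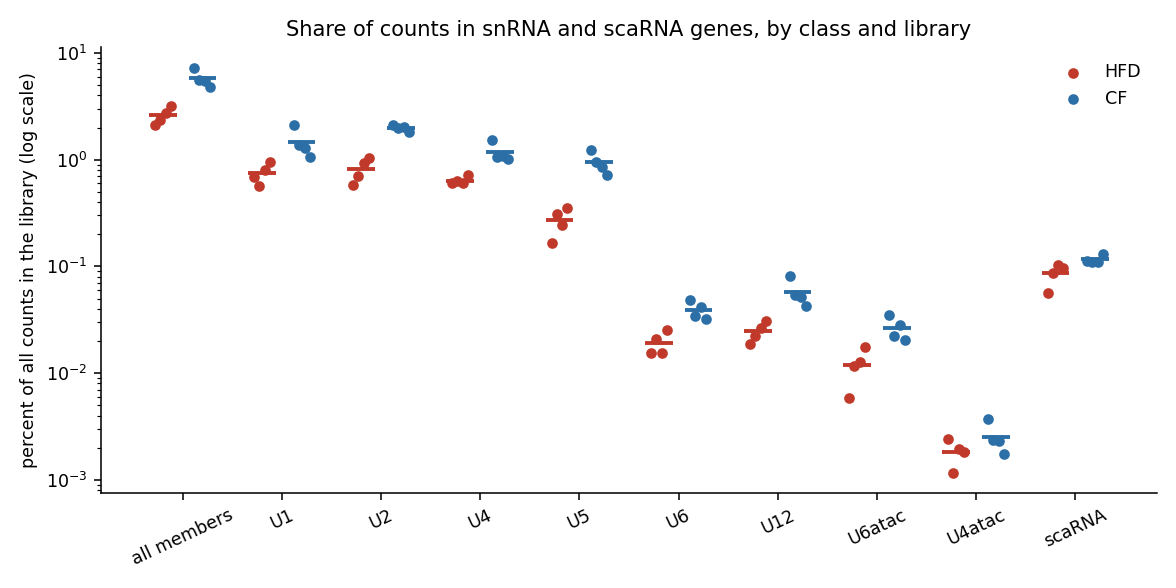
Percent of all counts in each library that fell on the members together and on each class, on a log axis, with 1 point per library and a line at the mean of 4. The groups do not overlap for the members together, 2.13% to 3.21% in HFD and 4.84% to 7.29% in CF, and they overlap for U4atac.

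At the level of single genes the members were lower in HFD by a median of 1.25 on the log2 scale, a 2.38-fold difference, in counts scaled by TMM to CPM, the unit of the levels below. Of the 231 tested, 229 had a negative log2 fold change, whereas the median of all 15837 genes tested was 0.05. By edgeR's quasi-likelihood test with Benjamini-Hochberg adjustment over all genes, 15 members (6.49%) fell and none rose, against 0.423% of all genes called lower. At an unadjusted p below 0.05, 207 members (89.6%) were lower, against 5.34% of all genes. None was higher at that level, against 3.22% of all genes. Every HFD library lay below every CF library in 144 members (62.3%), against 3.58% of all genes. These shares are not particular to the members. Of small nucleolar RNA (snoRNA) genes, 5.56% were called lower and 62.4% had groups apart in this way. Of rRNA genes of up to 200 nt, 47.4% were called lower and 86.0% had groups apart. DESeq2 called 143 members lower, against 3.18% of all genes, and none higher. The 15 members that fell were 2.57-fold to 4.84-fold lower, and in all 15 the groups did not overlap. They were 8 U2, 3 U5 and 3 U1 genes and 1 scaRNA gene.

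The number of calls depended on single libraries. Without HFD replicate 1, 23 members were called lower, against 1.05% of all genes, and without CF replicate 4, 43 were, against 0.968% of all genes. Without any 1 of the other 6 libraries no member was called, and of all genes tested only 0 to 2 were. In these 8 fits the median log2 fold change of the members stayed between -1.48 and -1.02, 176 to 216 members were lower at an unadjusted p below 0.05, and none was called higher.

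**Figure D2:**
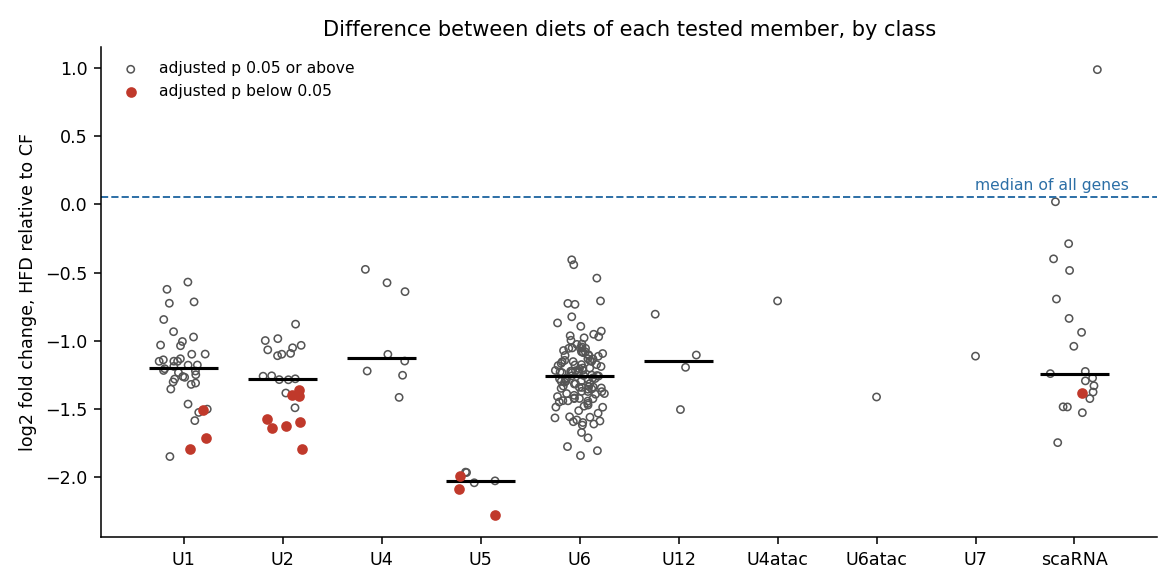
Log2 fold change (HFD relative to CF, edgeR) of each tested member by class, with filled points for an adjusted p below 0.05, black lines at the median of classes with more than 2 members and a dashed line at the median of all genes. The 7 U5 genes lie between -2.28 and -1.96, and the only points above 0 are 2 scaRNA genes.

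The U5 genes showed the largest difference of the major classes. U5 presents the exon ends to each other through a conserved loop, and all 7 U5 members hold its 9 letters. Gm25099 had 813, 1240, 941 and 1410 CPM in HFD replicates 1 to 4 and 6920, 4840, 4240 and 2680 CPM in CF replicates 1 to 4. All HFD libraries were below all CF libraries, and the gene fell by 2.09 ± 0.314 (SE) on the log2 scale (edgeR, adjusted p = 0.040). Gm24871 had 264, 419, 359 and 555 CPM in HFD and 2830, 1950, 1800 and 1160 CPM in CF and fell by 2.27 ± 0.318 (SE; edgeR, adjusted p = 0.037). It overlaps an exon of the non-coding gene B930036N10Rik, whose own log2 fold change was -1.29 (edgeR, adjusted p = 0.18), and their reads may be shared. Gm23287 had 58.0, 80.3, 57.0 and 86.0 CPM in HFD and 377, 310, 271 and 159 CPM in CF and fell by 1.99 on the log2 scale (edgeR, adjusted p = 0.036).

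The other 4 U5 genes did not pass the threshold, at adjusted p values between 0.0529 and 0.0711. Their log2 fold changes lay between -2.04 and -1.96, and their groups did not overlap either. Among them, Rnu5g had 188, 402, 337 and 507 CPM in HFD and 2050, 1480, 1240 and 823 CPM in CF. Its counts stood in a ratio of 1.02 to 1.03 to those of Gm25313, which lies 5039 bases away on the same strand, so these 2 rows are not separate evidence.

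U5 also made up less of the snRNA counts in HFD, when its summed counts were divided by those of U1 or U4 in the same library. Such ratios do not depend on the scaling between libraries and are given without a test. U5 counts per U1 count were 0.240, 0.550, 0.305 and 0.377 in HFD replicates 1 to 4 and 0.584, 0.696, 0.669 and 0.676 in CF replicates 1 to 4. U5 counts per U4 count reached 0.273 to 0.499 in HFD libraries and 0.712 to 0.903 in CF libraries. Neither range overlapped between the diets, though the highest HFD value of U5 to U1 was close to the lowest CF value. U5 to U2 did overlap, at 0.264 to 0.439 in HFD libraries and 0.403 to 0.583 in CF libraries, as did U4 to U1 and U2 to U1.

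Per kilobase of exon, the 4 major RNAs counted well were at like levels in CF. Summed over the genes of a class, U2 reached 114000 ± 24800 CPM per kb (SD, n = 4), U1 100000 ± 44700, U4 91900 ± 31000 and U5 90800 ± 33500, and no neighbours in this order differed by more than their spread. In HFD the order was U1 with 42700 ± 9780, U4 with 42100 ± 4270, U2 with 39400 ± 9700 and U5 with 21500 ± 6380 CPM per kb (SD, n = 4). U1, U4 and U2 lay within each other's spread. The highest HFD library of U5, at 29000 CPM per kb, was below the lowest of U2 at 30000, of U1 at 30600 and of U4 at 38400.

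**Figure D3:**
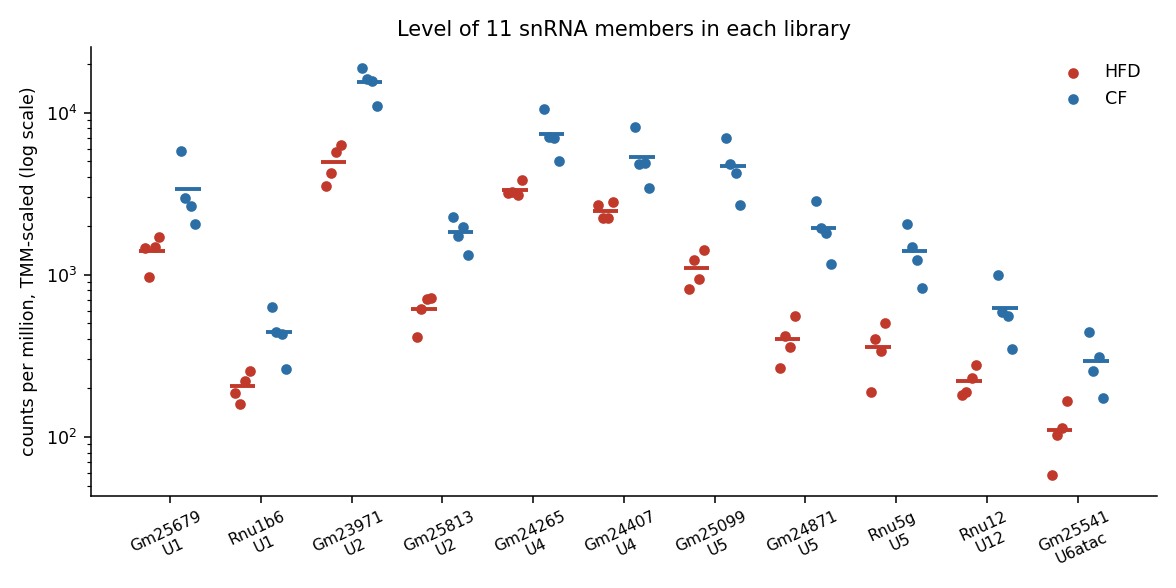
TMM-scaled CPM of 11 snRNA genes in each library, on a log axis, with 1 point per library and a line at the mean of 4. For each of the 11 genes every HFD library lies below every CF library.

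U2 was the class with the most genes called, 8 of 24. Gm23971 held more counts than any other member. It had 3530, 4250, 5690 and 6330 CPM in HFD replicates 1 to 4 and 18900, 16200, 15700 and 10900 CPM in CF replicates 1 to 4. The groups did not overlap, and it fell by 1.64 ± 0.261 (SE) on the log2 scale (edgeR, adjusted p = 0.043). Gm25813 on chromosome 8 had 414, 615, 706 and 720 CPM in HFD and 2280, 1730, 1960 and 1320 CPM in CF and fell by 1.57 (edgeR, adjusted p = 0.040). Gm25360, Gm24497 and Gm25939, neighbours on chromosome 1, fell by 1.40, 1.40 and 1.36. Mean levels of Gm25360 were 213 ± 16.6 CPM in HFD and 564 ± 132 CPM in CF (SD, n = 4 each). The 3 other genes called, Gm22958, Gm22423 and Gm24763, held few counts, with log2 fold changes of -1.79, -1.59 and -1.63.

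All 24 U2 genes were lower, between -1.79 and -0.88, and all 24 had an unadjusted p below 0.05. Their counts are uncertain one by one. Rnu2-10 has the same 191 bases as Gm23971 and lies near it on chromosome 11, yet it had 227, 165, 267 and 367 CPM in HFD and 618, 602, 543 and 337 CPM in CF. Its groups overlapped, and its log2 fold change of -1.03 did not pass (edgeR, adjusted p = 0.18). Gm24950, another copy with 100% identity, had counts 0.996 to 1.03 times those of Rnu2-10.

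U1 genes were lower in HFD by a median of 1.20 on the log2 scale, with all 40 negative and 36 at an unadjusted p below 0.05. U1 recognises the 5′ splice site first. The 3 genes called were minor ones. Gm23330, in an intron of Dnajc5b on chromosome 3, had 11.3, 12.3, 15.3 and 19.9 CPM in HFD and 52.0, 43.1, 41.3 and 30.9 CPM in CF and fell by 1.50 (edgeR, adjusted p = 0.040). Gm25581 and Gm23470 fell by 1.79 and 1.71. Gm23330 and Gm25581 have 94.5% and 92.7% identity with Gm25679, and Gm23470 is a fragment of 120 bases.

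The U1 genes with the most counts did not pass. Gm25679 had 1470, 970, 1480 and 1700 CPM in HFD and 5820, 2970, 2660 and 2060 CPM in CF, so that the groups did not overlap, and its log2 fold change was -1.27 ± 0.336 (SE; edgeR, adjusted p = 0.18). CF replicate 1 was far above the other CF libraries. Gm22317, with 100% identity on the same chromosome, gave -1.31 (edgeR, adjusted p = 0.18), and its groups overlapped, since CF replicate 4 at 1340 CPM was below HFD replicate 4 at 1530 CPM. Rnu1a1 has the same sequence as Gm25679, as 1 of 7 identical annotated copies, and reached only 16.6 to 55.2 CPM over all libraries, with a log2 fold change of -0.84.

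Mouse U1 also exists as U1b, a variant known for its use in embryonic and immature cells. The U1b gene Rnu1b6 is printed for comparison with Gm25679 above, with which it has 95.2% identity, 6 mismatches and 2 gap positions. The stretch that pairs with the 5′ splice site, in capitals, is the same.
U1, Rnu1b6, chr3:96460024-96460189, minus strand: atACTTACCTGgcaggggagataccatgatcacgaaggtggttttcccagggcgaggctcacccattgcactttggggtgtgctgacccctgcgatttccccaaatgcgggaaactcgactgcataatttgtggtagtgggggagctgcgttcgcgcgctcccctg
Rnu1b6 had 185, 160, 222 and 256 CPM in HFD and 630, 441, 430 and 261 CPM in CF. Its highest HFD library was just below its lowest CF library, and its log2 fold change was -1.10 ± 0.263 (SE; edgeR, adjusted p = 0.14). Rnu1b1 and Rnu1b2, which are identical to each other, gave -1.03 and -0.71 with overlapping groups. Counts of Rnu1b6 stood in a ratio of 1.04 to 1.06 to those of Gm25890, 26366 bases away on the same strand, so these rows are not separate evidence. None of the 3 genes with an Rnu1b symbol passed, and their values lay within the range of the other U1 genes.

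U4 and U6 pair with each other before the spliceosome is activated. No gene of either class was called. The U4 genes Gm24265 and Gm24407 on chromosome 5 have 98.6% identity and held nearly all U4 counts. Gm24265 had 3210, 3230, 3100 and 3830 CPM in HFD and 10500, 7080, 7010 and 5060 CPM in CF, and its log2 fold change was -1.15 ± 0.235 (SE; edgeR, adjusted p = 0.088). Gm24407 had 2680, 2240, 2230 and 2800 CPM in HFD and 8190, 4810, 4890 and 3440 CPM in CF, with -1.10 ± 0.267 (SE; edgeR, adjusted p = 0.14). The groups did not overlap for either gene. Gm25899, Gm22122 and Gm24459, with mean counts of 129, 1090 and 28.6, had the smallest differences of the class, between -0.64 and -0.48, and overlapped between the diets.

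U6 was the class with the most genes and with few counts on each. All 123 U6 genes were lower, between -1.84 and -0.41 with a median of -1.25, and 111 had an unadjusted p below 0.05. Their mean counts ran from 20.5 to 552. The whole class together reached 1690 ± 439 CPM per kb in HFD and 4090 ± 1290 in CF (SD, n = 4 each), far below its partner U4. The authors counted uniquely mapped pairs, and 26 of the 123 have an identical annotated copy. Over all classes the median mean count was 204 for members with an identical annotated copy and 99.2 for those without. The former take in 14 U1 genes, a class with a median of 501 against 48.4 for U6. The pooled medians therefore do not bear on U6. The part of copies in the low U6 counts was not tested. The genes with the highest mean counts were Gm26325, which does not hold the 9 letters and was classed by similarity, and Gm23947. Gm23947 had 9.85, 7.74, 5.54 and 12.1 CPM in HFD and 26.5, 18.2, 22.5 and 12.5 CPM in CF. The log2 fold change was -1.18 ± 0.290 (SE; edgeR, adjusted p = 0.15). In Gm26325 HFD replicate 4 stood apart at 0.0243 CPM, a single count, against 8.42 to 9.91 CPM in the other HFD libraries and 13.2 to 37.1 CPM in CF. Its log2 fold change of -1.84 carried an SE of 0.936 (edgeR, adjusted p = 0.69). Gm26325 overlaps an exon of Rnf225, and their reads may be shared.

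The minor spliceosomal RNAs were lower too, without a call. Rnu12 had 182, 190, 231 and 279 CPM in HFD and 1000, 591, 559 and 349 CPM in CF. The log2 fold change was -1.50 ± 0.305 (SE; edgeR, adjusted p = 0.088), and the groups did not overlap. Gm24525, the next U12 gene by counts, gave -1.19 with overlapping groups. The U6atac gene Gm25541 had 58.0, 103, 114 and 167 CPM in HFD and 440, 254, 312 and 173 CPM in CF, so that the groups came close without overlapping, and its log2 fold change was -1.41 ± 0.362 (SE; edgeR, adjusted p = 0.16). The U4atac gene Gm22710, partner of U6atac, had 24.2, 10.4, 17.5 and 17.4 CPM in HFD and 46.1, 26.7, 25.6 and 14.8 CPM in CF. Its groups overlapped, and its log2 fold change of -0.71 was smaller than that of its partner (edgeR, adjusted p = 0.68). It overlaps an exon of 2900060B14Rik, so its reads cannot be assigned with certainty. U12 counts per U2 count overlapped, between 0.0286 and 0.0328 in HFD libraries and between 0.0237 and 0.0386 in CF libraries.

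Rnu7, the histone mRNA processing RNA, held few counts, with 38 to 51 counts per library in HFD and 65 to 173 in CF. Its log2 fold change was -1.11 (edgeR, adjusted p = 0.20), with no overlap. It lies on an exon of Gm45234, and reads of the 2 genes may be shared.

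Among the 21 scaRNA genes, 19 were lower in HFD, 17 of them at an unadjusted p below 0.05, and 1 was called. Their log2 fold changes ran from -1.74 to 0.98 with a median of -1.24, and those of the snRNA genes from -2.28 to -0.41 with a median of -1.25. Summed over its genes, the class differed less. It had 800 ± 171 CPM in HFD and 1250 ± 118 CPM in CF (SD, n = 4 each), a log2 ratio of -0.645, against -1.403 for all members. Its part of the members' counts was 3.3% ± 0.539 in HFD and 2.06% ± 0.486 in CF (SD, n = 4 each). The gene called, Gm25492, lies in an intron of Bud23. It is printed with another scaRNA gene, Gm26083, which has the highest mean count of those up to 300 bases. Both end in the ACA box of H/ACA guide RNAs, in capitals, followed by 3 bases. An ACA at that place was found in 11 of 21 scaRNA members (52.4%) and in 0.474% of snRNA members.
scaRNA, Gm25492, chr5:135053988-135054116, minus strand: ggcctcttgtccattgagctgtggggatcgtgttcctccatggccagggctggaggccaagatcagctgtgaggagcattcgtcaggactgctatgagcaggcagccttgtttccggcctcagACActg
scaRNA, Gm26083, chr11:117077243-117077435, plus strand: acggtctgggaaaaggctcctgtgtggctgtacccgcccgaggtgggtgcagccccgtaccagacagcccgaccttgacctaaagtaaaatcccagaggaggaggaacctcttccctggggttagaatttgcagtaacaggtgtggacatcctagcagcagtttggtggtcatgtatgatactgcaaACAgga
Gm25492 had 5.17, 5.95, 7.69 and 6.79 CPM in HFD and 23.6, 15.8, 15.7 and 11.7 CPM in CF and fell by 1.38 ± 0.226 (SE) on the log2 scale (edgeR, adjusted p = 0.046). Gm26083 had 37.9, 53.1, 84.1 and 79.8 CPM in HFD and 185, 151, 151 and 129 CPM in CF, with -1.27 (edgeR, adjusted p = 0.082). It overlaps an exon of the non-coding gene Snhg20 and was named after its values were seen, for its counts at a length that can be printed. The groups did not overlap for either.

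Scarna3a, Scarna3b and Scarna8 were lower by amounts like those of the snRNAs. Scarna3a gave -1.22 (edgeR, adjusted p = 0.094), Scarna3b -1.38 (edgeR, adjusted p = 0.24) and Scarna8 -1.53 (edgeR, adjusted p = 0.11), all with groups apart. Scarna17 gave -0.69 with overlapping groups. The 5 scaRNA genes of over 200 nt had smaller differences than the class median of -1.24, but so did some shorter ones. Gm22009, of 343 bases, had 163, 256, 227 and 235 CPM in HFD and 311, 355, 267 and 301 CPM in CF, with -0.48 ± 0.161 (SE; edgeR, adjusted p = 0.33). Scarna2, of 414 bases, had 132, 160, 202 and 209 CPM in HFD and 239, 229, 188 and 202 CPM in CF, with -0.29 ± 0.166 (SE; edgeR, adjusted p = 0.75), and its groups overlapped. Scarna6, of 265 bases, gave -0.84 (edgeR, adjusted p = 0.12). Gm25395, also over 200 nt, gave -0.94 with groups apart (edgeR, adjusted p = 0.11). Among the shorter ones, Gm22442 gave -0.40 (edgeR, adjusted p = 0.81) and Gm23119 gave 0.02, both with overlapping groups.

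Scarna13, of 275 bases, split the CF libraries. It had 93.8, 113, 153 and 129 CPM in HFD, 140 CPM in CF replicate 3 and 107 CPM in CF replicate 4, and 0 counts in CF replicates 1 and 2. A count of 0 allows up to 0.0775 and 0.0954 CPM there. In the 6 libraries with counts the levels overlapped between the diets. The fitted log2 fold change of 0.98 had an SE of 1.62 (edgeR, adjusted p = 0.94) and rests on the 2 libraries at 0. Its host Snhg10 was not analysed here.

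No gene that contains a scaRNA was called. For 17 scaRNA genes the surrounding gene on the same strand was tested as well, 16 genes in all since Atg16l1 holds 2 of the scaRNAs. The log2 fold changes of these hosts lay between -0.30 and 0.33 with a median of 0.02, and 0 of 16 was called or had an unadjusted p below 0.05. Among all nuclear protein-coding genes only 0.034% were called lower, 0 higher, and 1.62% were lower at that p (edgeR). A count of 0 is therefore not particular to the hosts. The fitted log2 fold change of the scaRNA was lower than that of its host in 17 of 17 pairs. Library by library, the ratio of scaRNA to host counts overlapped between the diets in some pairs, such as Scarna6 and Gm22009. In others, such as Scarna3a and Scarna8, it did not. Bud23, a methyltransferase of the small ribosomal subunit that holds Gm25492, gave -0.08 (edgeR, adjusted p = 0.94). Cop1, a ubiquitin ligase, holds Scarna3a and gave 0.21, Haus6, an augmin subunit, holds Scarna8 and gave 0.01, and Dcaf5 holds Scarna3b and gave 0.06. Kpna4, an importin, holds Gm22009 and gave -0.12, and Atg16l1, an autophagy protein, holds Scarna6 and gave 0.04. For Atg16l1, Haus6, Bud23 and Kpna4 the sign of these small values changed under some alternatives. Of the 17 scaRNA genes, 15 lie in an intron of the host and 2 overlap an exon.

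**Figure D4:**
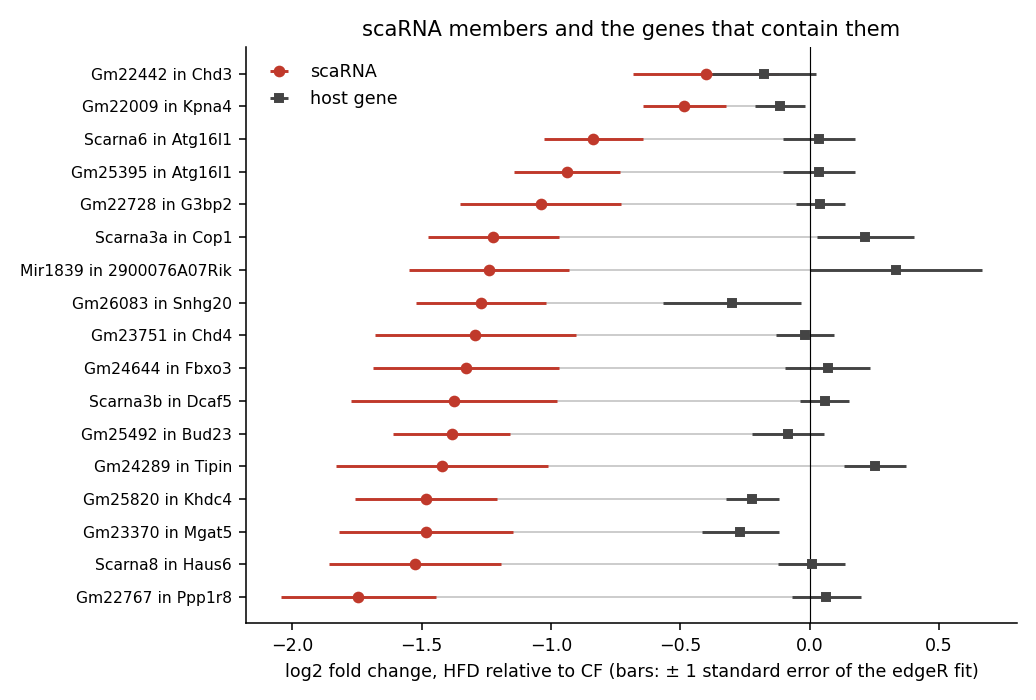
Log2 fold change (HFD relative to CF, edgeR, bars of 1 SE) of 17 scaRNA genes and of the genes that contain them. All scaRNA points lie below those of their hosts, from -1.74 for Gm22767 to -0.40 for Gm22442, and the hosts lie between -0.30 and 0.33.

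Some snRNA genes also lie inside other genes. Of 29 pairs with a tested host, the snRNA was lower than the host in 27. The 26 hosts had a median log2 fold change of 0.01, between -1.70 and 1.36. Of these hosts 2 had an unadjusted p below 0.05 and 0 was called. At that p, 5.34% of all genes were lower and 3.22% higher, and 0.423% were called lower (edgeR). By place, the median was -1.24 for the 44 intronic snRNA genes, -1.18 for the 8 that overlap an exon and -1.25 for the 158 outside genes of the same strand.

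Because near-identical copies cannot be separated, the counts of non-coding genes with 90% identity over 80% of both sequences were also summed into families. The 232 members then formed 62 families, 54 of them a single gene, and of the 61 tested 59 were lower. No family was called by edgeR, among the members or among all 15534 units tested, and the lowest adjusted p of a member family was 0.0996. At an unadjusted p below 0.05, 51 member families (83.6%) were lower, against 4.01% of all units. DESeq2 called 37 of the 61 lower, against 1.92% of all units. The family of all 7 U5 genes gave -2.09 ± 0.328 (SE), with 1630, 2750, 2200 and 3360 CPM in HFD and 15600, 11000, 9630 and 6150 CPM in CF (edgeR, adjusted p = 0.0996). The U2 family of 13 genes gave -1.54 ± 0.247 (SE; edgeR, adjusted p = 0.0996), the U1 family of 32 genes -1.24 ± 0.330 (SE; edgeR, adjusted p = 0.27) and the U6 family of 114 genes -1.29 ± 0.265 (SE; edgeR, adjusted p = 0.16). In each of these 4 the groups did not overlap.

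Other short RNA genes were lower in HFD as well, miRNA genes by less. The median log2 fold change was -1.37 for 306 snoRNA genes and -1.65 for 57 rRNA genes of up to 200 nt. At an unadjusted p below 0.05, 86.9% of these snoRNA genes and 94.7% of these rRNA genes were lower (edgeR). For 59 miRNA genes the median was -0.26, with 39 negative and 20 positive, and 23.7% were lower at an unadjusted p below 0.05 (edgeR). All 415 other non-coding genes of up to 200 nt had a median of -1.36. They take in these rRNA genes and the snoRNA and miRNA genes of that length. The median was -0.15 for 1929 longer non-coding genes and 0.07 for nuclear protein-coding genes. Among the members the median was -1.25 for the 226 of up to 200 nt and -0.48 for the 5 longer ones, which are all scaRNA genes. Across the 231 members the log2 fold change had a Spearman rho of 0.08 with length and -0.04 with mean count. The Pearson r with length was 0.28. Within classes, rho with length was 0.43 for the 20 scaRNA genes other than Scarna13, 0.23 for U1 and 0.03 for U6. These values are given as a description because the genes share libraries and sequence. The medians were -1.23 for 49 members with a mean count of at least 1000 and -1.26 for 110 with under 100.

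**Figure D5:**
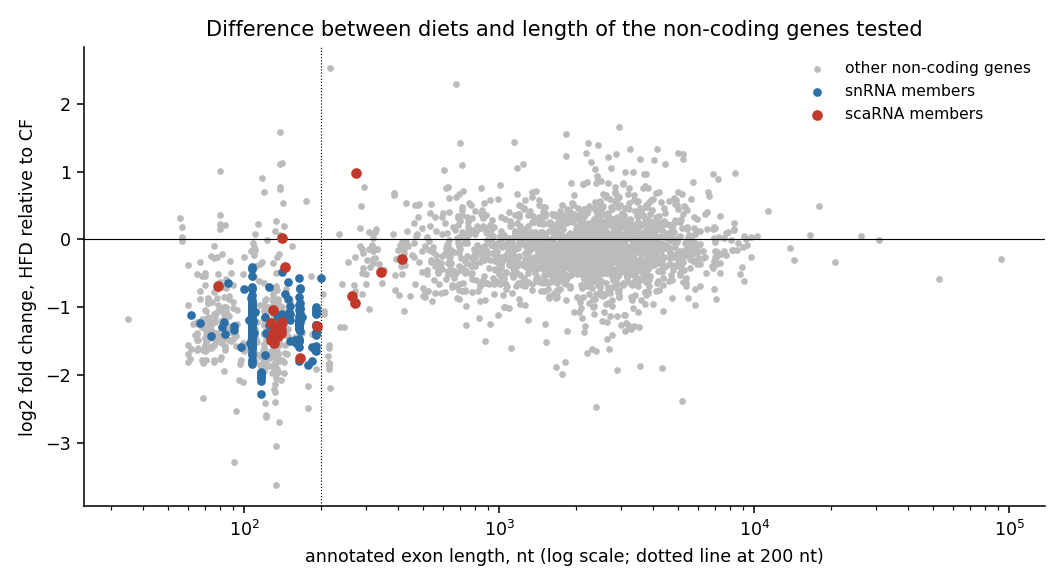
Log2 fold change (HFD relative to CF, edgeR) against annotated exon length on a log axis for the members and for the other non-coding genes tested. Members of up to 200 nt have a median of -1.25 and other non-coding genes of that length -1.36, and the 5 members beyond the dotted line are scaRNA genes.

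No mRNA of a protein that makes snRNAs or binds them was called by edgeR. Calls were rare among all nuclear protein-coding genes too, with 0.034% lower and 0 higher. Lists were set up for 127 genes, of which 126 were tested, 92 with a positive and 34 with a negative log2 fold change around a median of 0.08. At an unadjusted p below 0.05, 3 were lower and 3 higher, against 5.34% and 3.22% of all genes (edgeR). DESeq2 called 2, both lower, against 3.18% of all genes called lower. The 30 genes of snRNA transcription, which include the SNAPc factors and the Integrator that cleaves the 3′ end, had a median of 0.09, with Ints5 at 0.24 and Ints13 at 0.21. The 8 genes of cap binding, export and import had 0.12, and the 2 with the lowest p were Ran at 0.20 and the export adaptor Phax at 0.23. The Sm ring and the SMN complex that loads it had a median of 0.13 over 19 genes, with Snrpb, an Sm protein, at -0.40 ± 0.135 (SE; edgeR, adjusted p = 0.34) and Strap at 0.20.

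Among the particle proteins, the 12 genes of U6 binding and modification had a median of 0.08, with Mettl16 at 0.22 and Lsm4 at 0.20. In the list of 18 U1 and U2 proteins the median was 0.06, and the lowest values of all lists were here. Luc7l, a U1-associated protein, had 20.6 ± 1.04 CPM in HFD and 35.1 ± 10.3 CPM in CF (SD, n = 4 each), with -0.77 ± 0.206 (SE; edgeR, adjusted p = 0.18), and Sf3b3, of the U2 branch point complex, had 181 ± 32.8 and 286 ± 58.9 CPM, with -0.66 ± 0.192 (SE; edgeR, adjusted p = 0.23). These were the 2 genes that DESeq2 called. The 16 tri-snRNP proteins had a median of 0.07, with Usp39 at 0.19 and Snrnp40 at 0.17, and the 11 proteins of the minor spliceosome and U7 particle had 0.01, with Pdcd7 at 0.22 and Lsm11 at -0.23. The 13 Cajal body and guide-particle genes had 0.09, with Shq1 at 0.53 and Wrap53, which carries scaRNAs to the Cajal body, at 0.30.

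Markers of other cell types varied between libraries, and HFD replicate 1 stood apart. The summed CPM of 10 neutrophil genes was 19100 in it, against 898 to 3390 in the other HFD libraries and 1830 to 6210 in CF, and all 10 had a positive log2 fold change with none called. The 7 erythroid genes summed to 390 CPM in HFD replicate 1, 79.9 to 122 in the other HFD libraries and 74.7 to 117 in CF. The 7 B cell genes were all positive, 5 at an unadjusted p below 0.05 and none called, and their sums ran from 432 to 825 CPM under HFD and from 316 to 488 CPM under CF. The T and NK cell genes summed to between 8.74 and 30.5 CPM under HFD and between 11.1 and 20.8 CPM under CF, and Ncr1 was not among the genes of the table. Without HFD replicate 1 the median log2 fold change of the members was -1.17. The part of these other cell types in the members' difference was not tested.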

How the data were processed

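RNA-seq counts of 4 HFD and 4 CF libraries were analysed. Per the labels and the study's methods, the authors trimmed reads, aligned them to GRCm38 with HISAT2 and counted uniquely mapped pairs with StringTie and a GENCODE annotation, and deposited raw counts per gene. Versions and strand use are not given in the sources used here, so copies and overlapping genes may be miscounted. Unique counting leaves out reads that map equally to identical copies. Each gene of the table reached at least 29 counts in 1 library or more, a filter that is not described. Of the 16119 genes, 16067 matched GENCODE vM21, which gave biotypes, positions and sequences. Genes passing edgeR's filterByExpr (15837) were fitted with the robust quasi-likelihood method on diet after TMM scaling (R 4.3.3, edgeR 4.0.16), with a Benjamini-Hochberg threshold of 0.05. Alternatives used DESeq2 1.42.0, limma 3.58.1 (voom), other scalings, filters, a replicate block and each library left out. Copies were found with blastn 2.17.0. Where classes lacked the stretch of 9 letters, 80% identity over 60% of the length was required. The scripts were tested on simulated data. A count of 0 was taken to allow 3 counts, for counting error only, since the reads carry no molecular identifiers in these counts. Members, lists and tests were chosen with earlier results of these data known. Named in the text were all members called, all with an Rnu or Scarna symbol, the 2 of each class with the highest mean count, hosts of the named scaRNA genes, the 2 genes of each protein list with the lowest p, and of each class the sequence of the member with the highest mean count, except U5 and U6, whose sequences are not reported here. Gm22767, Gm22442, Gm26083, Gm22265, Gm23143, Gm25313, Gm24950, Gm25899, Gm22122, Gm24459, Gm25395, Gm23119 and Gm25890 were added after their values were seen.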

Additional observations from a re-analysis of the deposited data

Results flagged for a closer look

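In 150 groups of 4 values, for the genes named and the summed markers, 1 library stood apart from the other 3 by Dixon's criterion in 7 (4.67%), and chance alone flags about 1 group in 20. Among the members this was Gm26325, a U6 gene, with 0.0243 CPM in HFD replicate 4 against 8.42 to 9.91 CPM in the other HFD libraries. Dcaf5, the host of Scarna3b, had 23.5 CPM in HFD replicate 3 against 20.3 to 20.6 CPM. Strap, of the SMN pathway, had 46.6 CPM in HFD replicate 4 against 40.3 to 41.3 CPM, and Lsm11, of the U7 particle, 10.7 CPM in CF replicate 1 against 7.95 to 8.34 CPM. The neutrophil markers summed to 19100 CPM in HFD replicate 1, far above the other HFD libraries, and to 1830 CPM in CF replicate 1, far below the other CF libraries. The erythroid markers summed to 390 CPM in HFD replicate 1.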

How the results depend on the processing

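The count of 15 members called was 14 to 22 under other scalings, other filters and limma voom, and 143 with DESeq2. Of all genes 67 to 108 were called in the former fits and 567 with DESeq2. With each library left out the members called ran from 0 to 43 and all genes called from 0 to 200. Of the members 0 was called higher in any of these fits. With the replicate number as a block it was 0, with 0 of 15837 genes called, and the members' median log2 fold change was -1.24. The numbers do not pair the samples, since libraries of the same number had correlations of -0.439 to -0.078 between their deviations from the diet means. The median of the members ranged from -1.29 to -0.99, and with a library left out from -1.48 to -1.02. Library size alone moved the median of all genes from 0.05 to 0.25, and relative to it the members were at -1.24. The count of member families called, 0 as reported, was 37 with DESeq2 and ran from 0 to 5 with each library left out, 5 without HFD replicate 1 and 1 without CF replicate 4. The count of protein genes called, 0 as reported, was 2 with DESeq2 and ran from 0 to 1 with each library left out. The scaRNA gene was lower than its host in 17 of 17 pairs under each alternative, which were added after seeing the data. The log2 ratio of the members' share was -1.04 outside rRNA genes and -1.27 to -1.03 with a library left out. For the 62 genes named, 992 alternative values kept their side of the threshold in 841, lost it in 111, gained it in 29 and changed sign in 11. All 111 losses fell on the 15 members called, the only genes that could lose a call, so 841 overstates how stable those calls were. The 11 sign changes were small values of host genes. With each library left out Haus6 ran from -0.082 to 0.066 and Atg16l1 from -0.084 to 0.09. Haus6 gave -0.004 with RLE size factors, -0.032 with TMM from protein-coding genes, -0.005 with DESeq2 and -0.051, -0.059 and -0.082 without HFD replicate 2, HFD replicate 4 and CF replicate 2. Atg16l1 gave -0.003 with TMM from protein-coding genes and -0.084 and -0.009 without HFD replicate 1 and CF replicate 1. With library size alone Kpna4 gave 0.077 and Bud23 0.12. The cause of these changes was not tested. Depth limits the 111 members with a mean count under 100.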
